A study of Caenorhabditis elegans with 18 samples.

Results

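Worms kept in metal-contaminated control soil with a sampling time of 4 months were compared with worms kept in the same kind of soil with a sampling time of 0 days. The comparison used 6 of the 18 arrays of the series, chosen by their titles, with 3 arrays of control soil at 4 months and 3 of control soil at 0 days, and genes are named for the 25546 of 28387 probe sets with a single gene symbol. All 6 samples were Caenorhabditis elegans N2, the laboratory wild type, with no transgene or mutation. Per the labels' protocols, the animals reached the L4 or young adult stage during 2 days in liquid medium that they had entered as L1 and L2 larvae. Groups of 7500 to 10000 worms per well then spent 48 h, dark and at 20 °C with OP50 bacteria as food, on 0.3 g of the soil. Its metals were zinc at 4200 mg/kg, lead at 2700 mg/kg and cadmium at 310 mg/kg, and the control soil received no iron. L1 larvae were filtered out before RNA extraction, and each array holds RNA pooled from many whole animals. The labels do not say from what event the sampling times are counted, nor whether the replicates were grown apart. A p-value here measures only the spread between arrays, which may be technical. Sampling time, worm culture and any batch of processing that went with the time cannot be told apart. The nZVI soil, the same metal-contaminated soil with nanoscale zero-valent iron, is used only to ask whether the change over time in control soil differed from that in a second set of 6 arrays at the same 2 sampling times.

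The cuticle of C. elegans is built largely from collagens that are made in pulses before each moult, and larvae, the dauer stage (a resistant larval form entered under crowding and hunger) and adults each use their own sets. Neuropeptides are cut from longer precursors in neurons and stored in dense-core vesicles, and the FMRFamide-like, insulin-like and other neuropeptide-like precursors form large gene families. Metallothioneins, small cysteine-rich proteins that bind cadmium and zinc, and the zinc transporters of the intestine handle metal load. Lysozymes, saposin-like proteins, C-type lectins and short antimicrobial peptides are made by the intestine and epidermis against microbes, and pals genes are known for the response to intracellular pathogens.

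Values are log2 signals of probe sets on the C. elegans Gene 1.0 ST array, as normalised by the authors. A difference is the mean at 4 months minus the mean at 0 days on the log2 scale, given with its standard error from limma, and a probe set was called when its p-value, adjusted by Benjamini-Hochberg over 28387 probe sets, was under 0.05. Arrays 1 and 3 of control soil at 4 months stood apart from the rest. Their interquartile ranges were 3.80 and 3.70, against 4.14 for array 2 of that group and at least 4.07 for the other 15 arrays. Their probe sets of middle signal, with a mean between 5 and 6 over the 18 arrays, lay below the 0-day control mean by a median of -0.31 and -0.33, against 0.0037 for array 2. Their dimmest probe sets, with a mean up to 3, lay above it by 0.18 and 0.21, against 0.0067 for array 2. The median standard deviation within the group was 0.26 at 4 months and 0.17 at 0 days, and it ran from 0.15 to 0.20 in the other groups. The part of these 2 arrays in the results was not tested beyond the counts and differences without them, which are given below. With both left out 1 array remained at 4 months. A call lost there cannot be traced to these 2 arrays rather than to the smaller number of arrays.

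**Figure D1:**
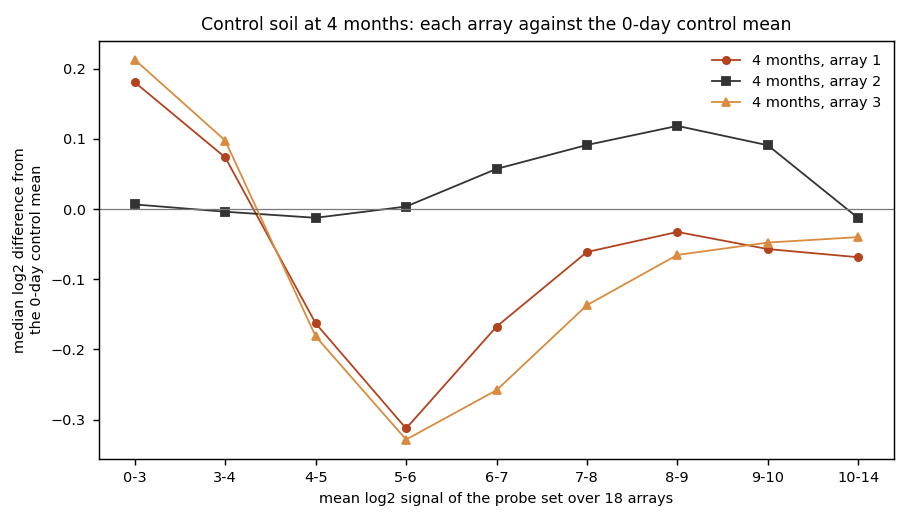
Median log2 difference (vertical axis) of each of the 3 arrays of control soil at 4 months from the mean of the 3 arrays of control soil at 0 days, for probe sets grouped by their mean log2 signal over 18 arrays (horizontal axis). Arrays 1 and 3 lay at -0.31 and -0.33 for signals between 5 and 6, where array 2 lay at 0.0037.

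Of 28387 probe sets, 2755 (9.71%) were called, 959 higher at 4 months (3.38%) and 1796 lower (6.33%), and falls were the larger changes, since 869 of the lower and 116 of the higher ones changed at least 2-fold. These 2-fold counts were 614 and 543 after rescaling each array to a common median and interquartile range, and 673 and 247 after quantile normalisation. Among 25478 genes with 1 probe set each, 857 (3.36%) were higher and 1542 (6.05%) lower, together 9.42%, and these shares are the background for every gene list below. The groups of 3 arrays did not overlap for 2584 of the 2755 called probe sets, while they did not overlap for 7150 (25.2%) of all probe sets. The split between directions depended on how the arrays were scaled. Lower calls made up 65.2% with the deposited values, 53.2% after centring each array on its median, 54.3% after quantile normalisation of the probe set values and 27.2% after rescaling each array to a common median and interquartile range. The count also moved with single arrays. It was 1303 without 4-month array 3, 5242 without 4-month array 2, 1428 without 0-day array 1 and 1620 without 0-day array 2. Without both 4-month arrays 1 and 3 it was 766, of which 181 were higher and 585 lower. Of the 202 called genes that are named by rule, 88 lost their call with only the 6 arrays compared. There the spread came from these arrays alone. Among the 88 were mtl-2, zipt-3, smf-3, fat-3, myo-2, tnt-2 and gst-21, with limma adjusted p-values from 0.055 to 0.0943. After rescaling 27 lost their call at the same sign, and hsp-90 and pmt-1 lost it with a reversed sign.

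The labelled stage was checked with marker lists. The 8 collagens of the adult and pre-adult cuticle had mean log2 signals of 6.26, 6.10 and 6.54 at 4 months, against 5.30, 5.53 and 5.50 at 0 days, so the groups did not overlap and every 4-month array was higher. All 8 differences were above 0, and col-7, a collagen of the adult cuticle, was the only member called, with 9.89, 9.48 and 10.36 at 4 months, against 8.84, 8.16 and 8.29 at 0 days (1.48 ± 0.21, adjusted p = 0.000317). The adult collagen col-19 had 7.97, 7.34 and 8.08 at 4 months, against 7.64, 7.25 and 7.02 at 0 days, which overlapped (0.49 ± 0.29, adjusted p = 0.291). The 5 yolk protein genes, made by the intestine of adult hermaphrodites for the oocytes, averaged 9.34, 8.35 and 9.17 at 4 months, against 8.08, 8.36 and 9.04 at 0 days, and none was called by limma (2 had an unadjusted p under 0.05). Of these, vit-2 had 11.40, 10.21 and 10.57 at 4 months, against 10.50, 10.57 and 10.90 at 0 days. The 21 moulting genes averaged 6.98, 7.47 and 7.38 at 4 months, against 6.90, 6.87 and 7.15 at 0 days, with none called and 6 at an unadjusted p under 0.05. The 9 male markers were near the floor in both groups, at 3.54, 3.79 and 3.49 at 4 months, against 3.46, 3.60 and 3.56 at 0 days, with none called and 1 at an unadjusted p under 0.05. The 10 intestine markers averaged 7.63, 8.33 and 7.78 at 4 months, against 7.83, 7.82 and 8.03 at 0 days, again with none called and 1 at an unadjusted p under 0.05. Their signal was lowest in the 2 narrow arrays at 4 months, and 3 members were called lower without 4-month array 2. Without 4-month array 2, 2 yolk genes were called higher and 1 moulting gene lower, and after rescaling 9 moulting genes, 4 intestine markers and 1 yolk gene were higher. With 4-month array 1 or array 2 left out 3 of the 8 adult collagens were called.

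The largest changes of the comparison were falls of cuticle collagens and of ground-like genes. The collagen col-36 had 3.80, 4.01 and 4.62 at 4 months, against 9.19, 9.29 and 9.30 at 0 days, a 34.7-fold lower signal (-5.12 ± 0.52, adjusted p = 1.74e-05). The secreted hedgehog-related ground-like gene grl-20 had 4.64, 4.48 and 4.76 at 4 months, against 9.50, 9.74 and 9.84 at 0 days, 33.4-fold lower (-5.06 ± 0.52, adjusted p = 2.09e-05). For col-185 the values were 3.53, 3.21 and 3.34 at 4 months, against 7.89, 8.84 and 8.51 at 0 days, 33.3-fold lower (-5.06 ± 0.56, adjusted p = 3.44e-05). In each of these 3 genes every 4-month array was far below every 0-day array. The genes with the largest changes were picked from called genes without overlap between the groups, so the separation itself is no further evidence. The collagens col-102, col-44, col-37 and col-43 followed, with differences of -4.39, -4.31, -4.11 and -4.08. The ground-like gene grl-25 had 4.45, 3.00 and 4.16 at 4 months, against 7.51, 8.08 and 7.92 at 0 days (-3.97 ± 0.51, adjusted p = 0.000138). Probe sets of collagens that resemble each other closely may cross-hybridise, so the members of the family cannot be taken as independent. In RNA from whole worms, fewer cells of a type and less RNA per cell cannot be told apart, and the same holds for fewer animals of a stage.

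Of 170 measured cuticle collagen genes 17 were lower (10% against 6.05% of all genes) and 20 higher (11.8% against 3.36%), so the family split into a group with large falls and a group with smaller rises. The 17 falls ran from -5.12 for col-36 to -1.01 for col-118, and among the deepest were also col-2, col-114 and col-158, with -4.06, -3.67 and -3.48. The 20 rises ran from 0.70 for col-73 to 1.83 for col-162. The 3 given in full next were among the largest rises, which were picked from called genes whose groups did not overlap. The values of col-162 were 8.28, 7.55 and 7.56 at 4 months, against 5.71, 5.90 and 6.29 at 0 days (1.83 ± 0.28, adjusted p = 0.000653), those of col-161 were 7.26, 7.00 and 7.22 at 4 months, against 5.45, 5.16 and 5.74 at 0 days (1.71 ± 0.29, adjusted p = 0.0013) and those of col-145 were 9.72, 9.39 and 9.90 at 4 months, against 8.06, 8.06 and 8.05 at 0 days (1.62 ± 0.27, adjusted p = 0.00121). In these 3 genes the groups did not overlap. Between 14 and 17 members were lower when any 1 array was left out, and 12 without both narrow arrays. The count of higher members was less stable, at 8 without 4-month array 3, 10 without 0-day array 1, 13 without 0-day array 3 and 6 without both narrow arrays, and at 40 after rescaling. Without both narrow arrays the differences of col-161 and col-145 were 1.55 and 1.34.

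Hedgehog-related genes code for secreted proteins that in C. elegans are linked to the epidermis and moulting, although the worm has no Hedgehog itself. Of 55 measured members 5 were lower and 0 higher (13 had an unadjusted p under 0.05 in limma). They were grl-20, grl-25, grl-23, grl-9 and grl-8, all of the ground-like branch. The gene grl-23 had 3.00, 3.41 and 3.08 at 4 months, against 5.94, 5.82 and 5.56 at 0 days (-2.61 ± 0.50, adjusted p = 0.00326), and grl-8 had 4.33, 5.23 and 3.97 at 4 months, against 6.12, 5.89 and 5.84 at 0 days (-1.44 ± 0.28, adjusted p = 0.00367). Between 4 and 7 were lower when 1 array was left out and 2 without both narrow arrays, and 3 were higher without 4-month array 2. Of 34 cuticlins, which form the alae and other insoluble parts of the cuticle, only cut-1 was called (lower, -2.65 ± 0.59, adjusted p = 0.00869, and 2 members without 4-month array 2).

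**Figure D2:**
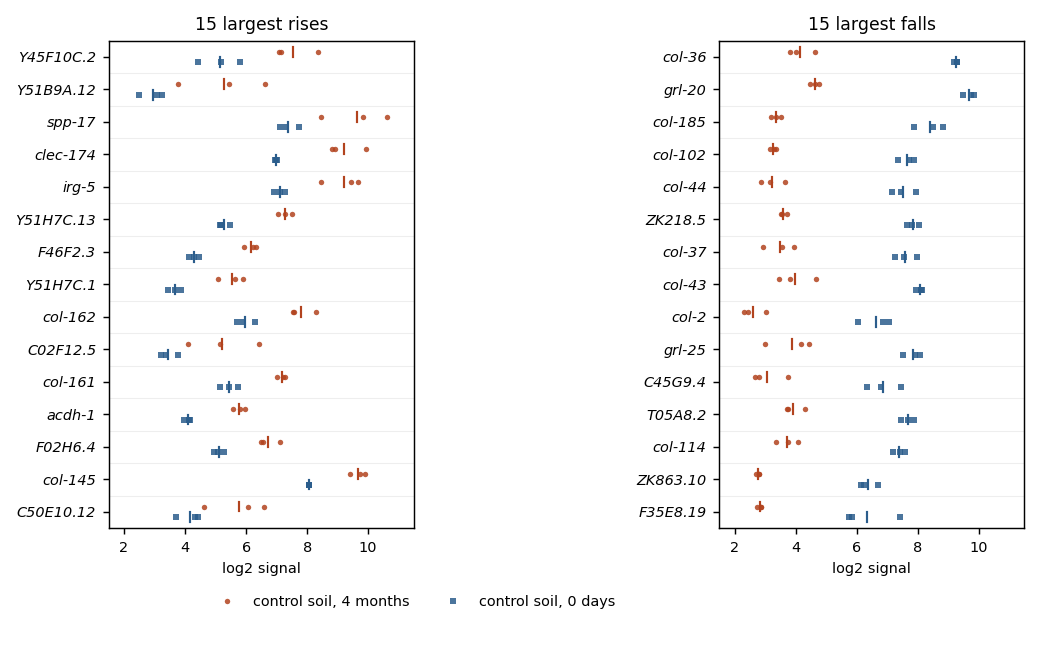
Log2 signal (horizontal axis) of the 15 genes with the largest rises (left panel) and the 15 with the largest falls (right panel) among called genes whose arrays did not overlap. Circles, drawn above, are the 3 arrays of control soil at 4 months, squares the 3 arrays at 0 days, and bars the group means. The falls, down to -5.12 for col-36, exceeded the rises, up to 2.40 for Y45F10C.2.

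Of 11 genes associated with the dauer stage 4 were lower, and each was lower in all 4-month arrays. They were col-2 and col-40, collagens of the dauer cuticle, cut-1, a cuticlin of dauer alae, and hsp-12.6, a small heat shock protein. The values of col-2 were 2.31, 3.03 and 2.43 at 4 months, against 6.03, 7.06 and 6.86 at 0 days (-4.06 ± 0.64, adjusted p = 0.00071). Those of cut-1 were 5.66, 4.60 and 5.57 at 4 months, against 7.56, 8.10 and 8.12 at 0 days, and those of col-40 were 2.99, 2.91 and 2.84 at 4 months, against 4.85, 5.78 and 5.21 at 0 days (-2.37 ± 0.51, adjusted p = 0.00764). The list's mean signal was 5.36, 5.36 and 5.38 at 4 months, against 6.13, 6.47 and 6.29 at 0 days. The other 7 members were not called. Of the 11 differences 7 were below 0 and 4 above, and the list's median of -0.26 became 0.062 after rescaling. The same 4 genes were lower in nZVI soil at 4 months, with differences of -5.11 (col-2), -3.62 (col-40), -3.46 (cut-1) and -3.80 (hsp-12.6). Without both narrow arrays the differences in control soil were -3.62 for col-2, -3.33 for cut-1, -2.37 for col-40 and -1.37 for hsp-12.6. The call of hsp-12.6 was lost without 0-day array 1 (adjusted p = 0.0601).

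Other large falls were spread over genes with no common name. The uncharacterised gene ZK218.5 had the smallest adjusted p of the named falls, with 3.71, 3.54 and 3.54 at 4 months, against 8.05, 7.81 and 7.65 at 0 days, 18.9-fold lower (-4.24 ± 0.19, adjusted p = 1.28e-09). T05A8.2 had 3.73, 3.74 and 4.30 at 4 months, against 7.44, 7.89 and 7.69 at 0 days (-3.75 ± 0.22, adjusted p = 5.97e-08). In both genes the arrays of a group lay close together and the groups were far apart. That the groups did not overlap was a condition for picking these genes. C45G9.4 had 2.79, 3.76 and 2.66 at 4 months, against 7.46, 6.79 and 6.33 at 0 days (-3.79 ± 0.30, adjusted p = 1.52e-06), and F35E8.19 had 2.86, 2.88 and 2.73 at 4 months, against 7.43, 5.76 and 5.84 at 0 days (-3.52 ± 0.35, adjusted p = 1.74e-05). ZK863.10 was lower by -3.60, and by -3.57 without both narrow arrays.

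The rises were smaller and more scattered. The largest of any probe set, 3.63 ± 0.57 (adjusted p = 0.000734), belonged to a probe set with no gene symbol in the platform annotation, which averaged 9.58 ± 1.18 at 4 months and 5.95 ± 0.22 at 0 days (SD, n = 3 each). Among named genes, irg-5, an infection response gene known to be induced by bacterial pathogens, had the smallest adjusted p of the named rises. Its values were 8.47, 9.67 and 9.44 at 4 months, against 7.10, 6.90 and 7.29 at 0 days, 4.27-fold higher (2.09 ± 0.25, adjusted p = 7.11e-05). The C-type lectin clec-174 had 8.91, 9.91 and 8.80 at 4 months, against 6.98, 6.93 and 7.02 at 0 days, 4.69-fold higher (2.23 ± 0.40, adjusted p = 0.00208). For spp-17, a saposin-like protein, the values were 10.61, 8.45 and 9.83 at 4 months, against 7.72, 7.30 and 7.12 at 0 days (2.25 ± 0.39, adjusted p = 0.00167). The 3 genes rose in every array, as the rule that picked them required, and spp-17 varied most between the 4-month arrays. The acyl-CoA dehydrogenase acdh-1, the first enzyme of the propionate breakdown shunt and known for its response to vitamin B12 in the diet, had 5.79, 5.56 and 5.96 at 4 months, against 3.98, 4.17 and 4.11 at 0 days, 3.2-fold higher (1.68 ± 0.21, adjusted p = 9.79e-05).

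Several uncharacterised genes rose with them. F46F2.3 had 5.92, 6.31 and 6.23 at 4 months, against 4.28, 4.12 and 4.45 at 0 days (1.87 ± 0.25, adjusted p = 0.000166), and F02H6.4 had 6.54, 6.50 and 7.10 at 4 months, against 4.95, 5.07 and 5.27 at 0 days (1.62 ± 0.22, adjusted p = 0.000251). Y51H7C.1 and Y51H7C.13, whose names place them on the same clone, rose together. Y51H7C.1 had 5.07, 5.63 and 5.89 at 4 months, against 3.87, 3.44 and 3.67 at 0 days (1.87 ± 0.29, adjusted p = 0.000586), and Y51H7C.13 had 7.26, 7.04 and 7.49 at 4 months, against 5.16, 5.16 and 5.48 at 0 days (2.00 ± 0.32, adjusted p = 0.000823). The groups did not overlap in any of these 4 genes, which was a condition for picking them. Y45F10C.2 had 8.36, 7.08 and 7.16 at 4 months, against 4.43, 5.79 and 5.18 at 0 days (2.40 ± 0.39, adjusted p = 0.0009). Y51B9A.12 (2.33) and C02F12.5 (1.77) differed most between the 4-month arrays, with values of 6.62, 3.76 and 5.43 and 6.43, 4.09 and 5.14 in 4-month arrays 1, 2 and 3. C50E10.12 (1.61) lost its call without 4-month array 3 (adjusted p = 0.054) and without 0-day array 1 (adjusted p = 0.0505). Without both narrow arrays the difference was 1.94 for Y45F10C.2, 1.77 for Y51H7C.13 and 1.06 for spp-17. It was 0.82 for Y51B9A.12, 0.64 for C02F12.5 and 0.48 for C50E10.12.

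FMRFamide-like neuropeptide genes (flp), whose peptides act on locomotion, feeding, egg laying and sleep, were lower as a family. Of 31 measured members 23 were lower (74.2%, against 6.05% of all genes) and 0 higher, and all 31 differences were below 0, from -2.29 for flp-32 to -0.31 for flp-24. Their mean signal was 7.33, 7.76 and 7.40 at 4 months, against 8.59, 8.52 and 8.35 at 0 days, so no 4-month array reached the lowest 0-day array. The gene flp-9 had 9.20, 9.49 and 9.26 at 4 months, against 10.48, 10.39 and 10.13 at 0 days (-1.02 ± 0.13, adjusted p = 0.00017). The gene flp-15 had 6.86, 7.24 and 6.92 at 4 months, against 8.55, 8.38 and 8.04 at 0 days (-1.32 ± 0.19, adjusted p = 0.000345). For flp-18, whose peptides are ligands of the neuropeptide Y receptor homologue NPR-1, the values were 7.63, 8.21 and 7.63 at 4 months, against 9.30, 8.91 and 8.92 at 0 days (-1.22 ± 0.18, adjusted p = 0.000333). For flp-1, which is known to modulate locomotion, they were 8.98, 9.17 and 8.64 at 4 months, against 10.37, 10.42 and 10.02 at 0 days (-1.34 ± 0.21, adjusted p = 0.000761). In all 4 genes the groups did not overlap, and the narrow 4-month arrays 1 and 3 were lower than array 2.

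The count of lower flp genes stayed between 21 and 26 when any 1 array was left out and was 17 after rescaling. It was 4 without both narrow arrays, where the family's median was -0.70, against -0.99 with all arrays and 0.063 over all genes. Without these 2 arrays flp-18 and flp-1 had adjusted p-values of 0.0541 and 0.0616, and flp-9 and flp-15 remained called. In nZVI soil, whose arrays did not include the narrow ones, 29 of the 31 members were lower at 4 months (against 9.65% of all genes) with a median of -1.16.

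Lower members were also found among other precursors. Of 78 genes of the class nlp, neuropeptide-like proteins, 45 were lower (57.7%) and 0 higher, and 67 differences were below 0. The class also holds antimicrobial nlp genes such as nlp-33, which are counted again among the antimicrobial peptides. The gene nlp-12, whose cholecystokinin-like peptides act on motor neurons, had 8.44, 8.48 and 8.17 at 4 months, against 9.96, 9.90 and 9.63 at 0 days (-1.47 ± 0.19, adjusted p = 0.000169). The values of nlp-81 were 6.37, 6.94 and 6.31 at 4 months, against 8.27, 8.23 and 7.97 at 0 days (-1.62 ± 0.23, adjusted p = 0.000272), and those of nlp-59 were 6.48, 6.53 and 5.71 at 4 months, against 7.98, 7.85 and 7.45 at 0 days (-1.52 ± 0.21, adjusted p = 0.000291). No 4-month array of these 3 genes reached a 0-day array. Of 84 genes of the class nssp 29 were lower (34.5%) and 0 higher, with 25 differences above 0. Among the lower ones was nssp-17, with 7.59, 7.69 and 7.21 at 4 months, against 9.31, 9.48 and 9.22 at 0 days (-1.85 ± 0.18, adjusted p = 1.14e-05). When 1 array was left out between 34 and 50 nlp genes and between 20 and 35 nssp genes were lower, and without both narrow arrays 9 of each class were lower. The class members named here were chosen after their values were seen.

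Insulin-like peptides, ligands that stimulate or block the insulin receptor homologue DAF-2, had 11 of 40 members lower (27.5%) and 1 higher. The genes ins-18 and ins-17, known as antagonists of that receptor, were both lower. Signals of ins-18 were 5.15, 5.39 and 5.06 at 4 months, against 6.82, 6.97 and 6.64 at 0 days (-1.61 ± 0.23, adjusted p = 0.000317), and those of ins-17 were 6.36, 6.60 and 6.37 at 4 months, against 7.40, 7.61 and 7.37 at 0 days (-1.02 ± 0.18, adjusted p = 0.00154). For ins-12 the values were 4.32, 4.60 and 4.49 at 4 months, against 6.09, 6.11 and 5.54 at 0 days (-1.44 ± 0.19, adjusted p = 0.000154), and for ins-13 they were 2.99, 3.11 and 3.07 at 4 months, against 4.83, 4.13 and 5.40 at 0 days (-1.73 ± 0.29, adjusted p = 0.00118). The groups of these 4 genes did not overlap. The gene that rose was ins-39 (1.45). Between 9 and 13 members were lower when 1 array was left out, 4 without both narrow arrays, and a second member was higher without 4-month array 3 or without 0-day array 3. The 19 general neuron markers had 4 members lower and 0 higher, with mean signals of 7.03, 7.88 and 7.27 at 4 months, against 7.82, 7.76 and 8.03 at 0 days, which overlapped. The 4 were sbt-1, a chaperone of the enzyme that cuts neuropeptide precursors, egl-21, a peptidase that trims them, ida-1, a dense-core vesicle protein, and ric-4, a synaptic SNAP-25 protein. For sbt-1 the values were 9.75, 10.09 and 9.73 at 4 months, against 10.77, 10.69 and 10.72 at 0 days (-0.87 ± 0.16, adjusted p = 0.00249). The differences of the other 3 were -0.80 (egl-21), -0.88 (ida-1) and -1.34 (ric-4). Of the 4 calls, 2 were lost without 4-month array 1 (egl-21, adjusted p = 0.0507, and ida-1, adjusted p = 0.0778), that of ida-1 also without 4-month array 3 or 0-day array 3 (adjusted p = 0.0687 and 0.0706), all 4 without both narrow arrays, and 10 members were called without 4-month array 2. After rescaling sbt-1, egl-21 and ida-1 were not called (adjusted p = 0.161, 0.433 and 0.179). The part of these markers in the lower neuropeptide signals was not tested.

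**Figure D3:**
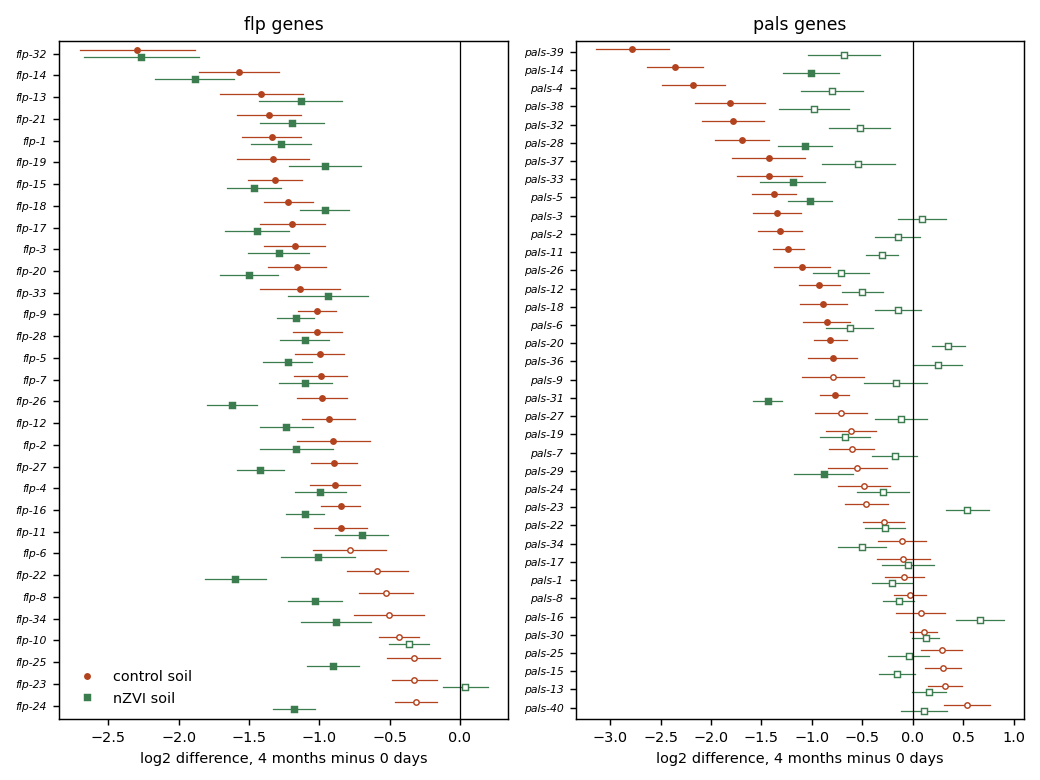
Log2 difference, 4 months minus 0 days (horizontal axis), with its standard error for every measured flp gene (left panel) and pals gene (right panel), in control soil (circles) and nZVI soil (squares). Filled symbols were called at an adjusted p under 0.05. All 31 flp genes lay below 0 in control soil, and 19 of 37 pals genes were called lower there, against 6 in nZVI soil.

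Among genes that handle metals, all called members of the metal detoxification and zinc transporter lists were lower. They made up 23.1% of the measured metal detoxification genes and 15.8% of the zinc transporters, against 6.05% of all genes. The metallothionein mtl-1 had 10.71, 10.61 and 10.08 at 4 months, against 12.22, 11.85 and 11.81 at 0 days, 2.82-fold lower (-1.49 ± 0.18, adjusted p = 8.18e-05). The second metallothionein, mtl-2, had 11.38, 11.04 and 10.78 at 4 months, against 11.79, 11.85 and 11.70 at 0 days (-0.71 ± 0.15, adjusted p = 0.00724). Both stayed among the bright probe sets in every array. The cadmium-responsive gene cdr-1 had 7.56, 7.63 and 7.01 at 4 months, against 7.90, 7.86 and 7.65 at 0 days and was not called (-0.40 ± 0.17, adjusted p = 0.148). Of 13 measured metal detoxification genes 3 were lower and 0 higher, the last being hizr-1, a nuclear receptor that senses high zinc, with 4.92, 5.86 and 5.07 at 4 months, against 6.06, 6.09 and 6.08 at 0 days (-0.79 ± 0.20, adjusted p = 0.0185). The call of mtl-1 held under every alternative setting. That of mtl-2 was lost after rescaling (adjusted p = 0.801), where the list's median of -0.31 became 0.075. Without both narrow arrays the difference of hizr-1 was -0.22. Its call was lost without 4-month array 1 (adjusted p = 0.0793), 4-month array 3 (0.0925), 0-day array 1 (0.0564) and 0-day array 2 (0.0561). The count was 2 when any 1 of these 4 arrays was left out.

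The zinc transporter cdf-2, which stores zinc in gut granules, had 8.39, 9.02 and 8.41 at 4 months, against 10.09, 9.98 and 9.91 at 0 days, 2.62-fold lower (-1.39 ± 0.16, adjusted p = 5.84e-05), and its call held under every alternative setting. The ZIP family importer zipt-3 had 7.46, 7.50 and 7.25 at 4 months, against 8.06, 8.08 and 8.34 at 0 days (-0.76 ± 0.15, adjusted p = 0.00521), and its relative zipt-15 had 8.91, 9.22 and 8.88 at 4 months, against 9.71, 9.52 and 9.67 at 0 days (-0.63 ± 0.15, adjusted p = 0.0111). These 3 of 19 zinc transporters were lower and 0 were higher, with 5 lower without 4-month array 2. The call of zipt-15 was lost without 4-month array 3 (adjusted p = 0.0567) and without 0-day array 1 (0.0518), and those of zipt-3 and zipt-15 after rescaling (0.0678 and 0.376). Of 23 iron and heme genes smf-3, an intestinal importer of iron and manganese, was lower, with 4.01, 4.83 and 4.45 at 4 months, against 5.50, 5.24 and 5.52 at 0 days (-0.99 ± 0.20, adjusted p = 0.0049). Its difference was -0.59 without both narrow arrays. The ferroportin homologue fpn-1.1 (0.77 ± 0.18, adjusted p = 0.0124) and the secreted heme-signalling protease homologue hrg-7 (0.95 ± 0.26, adjusted p = 0.0292) were higher, and both calls were lost without 0-day array 1 (adjusted p = 0.0617 and 0.104) and without 0-day array 2 (0.061 and 0.0708). That of hrg-7 was also lost without 4-month array 2 (0.0738) or 0-day array 3 (0.0535), while 4 members were higher without 4-month array 1. The ferritins were not called with the deposited values. For ftn-1 the values were 4.66, 4.00 and 3.60 at 4 months, against 4.50, 4.93 and 4.30 at 0 days (-0.49 ± 0.24, adjusted p = 0.205). For ftn-2 they were 10.92, 10.89 and 10.93 at 4 months, against 10.91, 11.02 and 10.94 at 0 days (-0.04 ± 0.12, adjusted p = 0.842). The small difference of ftn-2 became 0.56 after rescaling, where ftn-2 was called higher (limma, adjusted p = 0.0328).

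Defence genes were called in both directions, and the C-type lectins at a lower share close to that of all genes. The intestinal lectin clec-60 had 4.68, 5.22 and 4.54 at 4 months, against 8.23, 8.52 and 7.99 at 0 days, 10.8-fold lower (-3.43 ± 0.25, adjusted p = 7.86e-07). The lectin clec-7 had 5.43, 6.20 and 4.47 at 4 months, against 8.07, 8.64 and 8.59 at 0 days, 8.37-fold lower (-3.07 ± 0.29, adjusted p = 9.37e-06), and clec-5 had 5.87, 6.08 and 5.83 at 4 months, against 7.23, 7.65 and 7.44 at 0 days (-1.51 ± 0.15, adjusted p = 1.74e-05). Of 247 C-type lectins 16 were lower and 14 higher, 6.48% and 5.67%, against 6.05% and 3.36% of all genes. The groups of the 3 lectins did not overlap, and their calls held under every alternative setting. The counts moved with single arrays. Lower members numbered 10 without 4-month array 3, and higher members 7 without 4-month array 3, 0-day array 2 or 0-day array 3, 9 without 0-day array 1, and 31 without 4-month array 2.

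Lysozymes and saposin-like proteins had 9 of 44 members lower (20.5%) and only spp-17 higher. The lysozyme lys-8 had 9.15, 9.47 and 9.05 at 4 months, against 10.47, 10.46 and 10.64 at 0 days (-1.3 ± 0.14, adjusted p = 2.73e-05), and spp-1 had 6.43, 5.93 and 5.53 at 4 months, against 7.16, 7.28 and 7.09 at 0 days (-1.21 ± 0.18, adjusted p = 0.00046). Both were lower in every 4-month array. The other 7 ran from -1.16 for spp-15 to -0.65 for spp-18. Without 4-month array 3, 0-day array 1 or 0-day array 2, 5 members were lower, 3 were higher without 4-month array 2, and the list's median of -0.26 became 0.0082 after rescaling. Of 62 short antimicrobial peptide genes 12 were lower (19.4%) and cnc-6 higher (0.52), a call lost without 4-month array 1, 4-month array 3, 0-day array 1 or 0-day array 2. The fungus-induced protein relative fipr-1 had 7.03, 7.57 and 6.78 at 4 months, against 9.12, 9.10 and 8.92 at 0 days (-1.93 ± 0.23, adjusted p = 7.43e-05), and fipr-2 had 8.45, 8.67 and 8.14 at 4 months, against 9.67, 10.10 and 10.06 at 0 days (-1.52 ± 0.20, adjusted p = 0.00013). The antibacterial factor relative abf-5 had 4.40, 4.26 and 3.88 at 4 months, against 6.38, 6.08 and 5.74 at 0 days (-1.89 ± 0.19, adjusted p = 1.85e-05). The epidermal antimicrobial peptide nlp-33 had 9.0, 8.82 and 8.72 at 4 months, against 10.17, 10.29 and 9.86 at 0 days (-1.26 ± 0.18, adjusted p = 0.00029). In these 4 genes the groups were well apart. Between 7 and 12 members were lower when 1 array was left out, with 7 without 0-day array 1.

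The 19 infection response genes held 3 rises and 2 falls. Besides irg-5, irg-6, induced by pathogenic bacteria, had 4.50, 5.28 and 4.59 at 4 months, against 3.20, 3.90 and 3.39 at 0 days (1.29 ± 0.22, adjusted p = 0.0012), and sysm-1 rose by 0.90. The falls were dod-6, with 9.56, 9.80 and 9.60 at 4 months, against 10.88, 11.01 and 11.07 at 0 days (-1.33 ± 0.19, adjusted p = 0.00037), and dod-18 (-0.90 ± 0.22, adjusted p = 0.0165), 2 genes first found downstream of the insulin pathway factor DAF-16. The call of dod-18 was lost without 4-month array 3 (adjusted p = 0.0989) and without 0-day array 1 (0.0926). Its difference was -0.63 without both narrow arrays. The list had 2 rises without 4-month array 3 or 0-day array 1, and 6 without 4-month array 1, and without 4-month array 2 it had 4 falls.

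Genes of the pals family, which includes regulators and targets of the intracellular pathogen response, had 19 of 37 members lower (51.4%) and 0 higher. Their mean signal was 4.00, 4.31 and 3.97 at 4 months, against 5.05, 4.79 and 4.88 at 0 days, and 31 of 37 differences were below 0. The gene pals-14 had 3.66, 4.13 and 3.79 at 4 months, against 6.90, 5.78 and 5.98 at 0 days, 5.13-fold lower (-2.36 ± 0.28, adjusted p = 5.63e-05). The gene pals-39 had 4.05, 5.76 and 4.89 at 4 months, against 7.97, 7.71 and 7.37 at 0 days (-2.78 ± 0.36, adjusted p = 0.000133), pals-4 had 4.27, 5.27 and 3.74 at 4 months, against 6.71, 6.46 and 6.63 at 0 days (-2.18 ± 0.31, adjusted p = 0.00031) and pals-11, at the dim end, had 2.26, 2.13 and 2.18 at 4 months, against 3.59, 3.26 and 3.42 at 0 days (-1.23 ± 0.15, adjusted p = 0.000103). In each of them all 4-month arrays were below all 0-day arrays, and the 4 calls held under every alternative setting. The family's median was -0.79, and -0.80 after rescaling. Between 13 and 20 members were lower when 1 array was left out, 6 without both narrow arrays and 19 after rescaling. Some pals genes are similar in sequence, so their probe sets may share signal. In nZVI soil 6 members were lower at 4 months, with a median of -0.28, and the change over time differed between the soils for 5 members (of all genes 2.95% had a more negative and 1.39% a more positive change in control soil).

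F-box and MATH genes, large families whose proteins bring substrates to ubiquitin ligases, had 29 of 421 members lower (6.89%) and 8 higher (1.90%), near the background. The F-box A genes at the lower end changed clearly. The gene fbxa-75 had 3.44, 4.16 and 4.38 at 4 months, against 7.14, 7.14 and 7.02 at 0 days, 8.6-fold lower (-3.10 ± 0.22, adjusted p = 3.83e-07). The values of fbxa-182 were 5.92, 6.38 and 5.91 at 4 months, against 7.71, 7.52 and 7.64 at 0 days (-1.56 ± 0.17, adjusted p = 3.06e-05), those of fbxa-158 were 4.34, 4.19 and 3.66 at 4 months, against 6.07, 5.14 and 5.70 at 0 days (-1.57 ± 0.21, adjusted p = 0.000193) and those of fbxa-6 were 4.18, 4.70 and 4.29 at 4 months, against 5.84, 6.70 and 5.92 at 0 days (-1.76 ± 0.25, adjusted p = 0.00027). None of these 4 genes had overlapping groups. Without 4-month array 3 or 0-day array 1, 17 and 19 members were lower, and without 4-month array 2 there were 46. Higher members numbered 29 without 4-month array 2 and between 2 and 5 without any other of the 6 arrays.

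Of 15 measured heat shock genes 6 were lower (40%) and 0 higher, with 11 differences below 0 and 4 above. The inducible chaperone hsp-70 had 6.23, 6.43 and 6.06 at 4 months, against 7.34, 7.21 and 7.42 at 0 days (-1.08 ± 0.16, adjusted p = 0.000543). The small heat shock protein hsp-16.41 was dim at 4 months, with 2.3, 2.56 and 2.49 at 4 months, against 4.50, 3.37 and 3.60 at 0 days (-1.37 ± 0.22, adjusted p = 0.000813). The small heat shock protein hsp-12.2 had 7.43, 6.89 and 7.17 at 4 months, against 8.34, 8.34 and 8.14 at 0 days (-1.11 ± 0.20, adjusted p = 0.00208). Each of the 3 was lower in every 4-month array, and their calls held under every alternative setting. The others were hsp-12.3 (-1.35), hsp-12.6 (-1.35) and hsp-90 (-0.60 ± 0.13, adjusted p = 0.00673), and the sign of hsp-90 turned to 0.038 after rescaling. The list's median was -0.31, and -0.0083 after rescaling, where 5 members were lower and 5 higher. Between 5 and 6 members were lower when 1 array was left out and 3 without both narrow arrays.

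The other stress lists given here held between 1 and 4 calls each. Lower members made up 28.6% of the DAF-16 targets and 25% of the hypoxia and sulphide genes, against 6.05% of all genes. Of the mitochondrial stress genes 25% were higher, against 3.36% of all genes, and 12.5% lower. Among 26 antioxidant enzymes the glutathione peroxidase gpx-3 was lower, with 3.89, 5.36 and 4.33 at 4 months, against 6.61, 6.61 and 6.89 at 0 days (-2.17 ± 0.30, adjusted p = 0.000235), and it was the only member called. It held under every alternative setting, and 2 members were called without 4-month array 1 or 0-day array 3 and 3 without 4-month array 2. The superoxide dismutase sod-3 had 3.39, 3.71 and 3.35 at 4 months, against 2.74, 3.27 and 3.25 at 0 days and was not called (0.40 ± 0.25, adjusted p = 0.336). Of 8 hypoxia and sulphide genes ethe-1, a sulphide-oxidising enzyme, and nhr-57, a target of the hypoxia factor HIF-1, were lower (-1.0 ± 0.21, adjusted p = 0.00663 and -1.06 ± 0.24, adjusted p = 0.0104), and without both narrow arrays they were at -0.59 and -0.54 with neither called (adjusted p = 0.301 and 0.385). Of 19 osmotic stress genes the aquaporin aqp-1 was lower (-1.06 ± 0.21, adjusted p = 0.00459, with adjusted p = 0.178 without both narrow arrays and 3 members called without 4-month array 2). Of 14 targets of DAF-16 4 were lower and 0 higher, namely mtl-1, hsp-12.6, spp-1 and icl-1 (2 without 0-day array 1). Of 8 mitochondrial stress genes hsp-60 and lonp-1 were higher (0.50 and 0.54) and timm-23, a subunit of the inner membrane import channel, was lower (-0.67). None of these 3 calls held without 4-month array 3, 0-day array 1 or 0-day array 2.

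Of 12 measured lipases 5 were lower (41.7%) and 0 higher, with 7 differences below 0 and 5 above. The lysosomal lipase lipl-1 had 4.35, 4.77 and 4.39 at 4 months, against 6.11, 6.28 and 6.30 at 0 days, 3.3-fold lower (-1.72 ± 0.13, adjusted p = 1.47e-06). The lipase lipl-2 had 4.14, 5.54 and 4.25 at 4 months, against 7.00, 6.77 and 6.74 at 0 days (-2.19 ± 0.27, adjusted p = 9.52e-05), and lipl-3 had 2.55, 2.64 and 2.53 at 4 months, against 3.45, 4.19 and 3.40 at 0 days (-1.11 ± 0.18, adjusted p = 0.00102). In these 3 genes the groups did not overlap. Of the 12 lipases 3 were lower without 4-month array 1, 4-month array 3, 0-day array 1 or 0-day array 2. Of 39 fatty acid oxidation genes 4 were higher and 2 lower. The acyl-CoA synthetase acs-2, which is induced by fasting, had 6.40, 5.96 and 5.89 at 4 months, against 8.05, 7.79 and 8.27 at 0 days, 3.88-fold lower (-1.96 ± 0.21, adjusted p = 2.82e-05), and ech-3 had a difference of -0.98. The rises were acdh-1, acdh-13, acdh-12 and kat-1, with 1.68, 0.93, 0.58 and 0.43. Without 4-month array 3, 0-day array 1 or 0-day array 2 there were 2 rises, and 1 fall without these arrays or 0-day array 3, while 4 falls were called without 4-month array 2. The shunt gene acdh-1 and the fall of acs-2 held under every alternative setting. The remaining 4 genes of the propionate shunt were not called, and of these alh-8 had 12.18, 12.56 and 12.31 at 4 months, against 12.63, 12.57 and 12.66 at 0 days.

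Of 22 fatty acid synthesis and desaturation genes the delta-6 desaturase fat-3 (-0.60 ± 0.12, adjusted p = 0.00367) and sbp-1, the homologue of the lipogenic factor SREBP (-0.77 ± 0.16, adjusted p = 0.0053), were lower, with 6 lower without 4-month array 2. The difference of fat-3 was -0.031 after rescaling (adjusted p = 0.927), and that of sbp-1 was -0.32 without both narrow arrays (adjusted p = 0.346). The fatty acid binding protein far-7 had 5.23, 4.92 and 5.25 at 4 months, against 6.99, 6.60 and 6.30 at 0 days (-1.50 ± 0.21, adjusted p = 0.000251) and was the only one of 17 called (2 without 4-month array 1). In the phosphocholine pathway pmt-1, the first methyltransferase, was lower (-0.59 ± 0.12, adjusted p = 0.00367) and pmt-2, the second, higher (0.60 ± 0.15, adjusted p = 0.019). The sign of pmt-1 turned to 0.047 after rescaling, and the call of pmt-2 was lost without 4-month array 3, 0-day array 1, 0-day array 2 or 0-day array 3 (adjusted p = 0.104, 0.0539, 0.0542 and 0.0562). Among 28 digestive proteases 4 were lower and 1 higher. The aspartyl protease asp-7 had 3.83, 3.93 and 3.75 at 4 months, against 4.91, 5.43 and 5.40 at 0 days (-1.41 ± 0.22, adjusted p = 0.000655), the cathepsin B relatives cpr-1 and cpr-6 differed by -0.66 and -0.61, cpz-1 by -0.48, and asp-17 had 10.96, 10.91 and 10.93 at 4 months, against 10.18, 10.37 and 10.20 at 0 days (0.68 ± 0.14, adjusted p = 0.00438). After rescaling cpr-1 and cpr-6 were at -0.14 and -0.13 (adjusted p = 0.517 and 0.589), and both calls were also lost without both narrow arrays (0.209 and 0.102). Without 4-month array 2, 7 proteases were lower.

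Of 22 genes of the gland and cuticle of the pharynx, the feeding organ, 5 were lower (22.7%) and 0 higher. The gland gene phat-7 had 5.90, 6.29 and 6.44 at 4 months, against 8.02, 7.99 and 7.76 at 0 days (-1.72 ± 0.17, adjusted p = 1.82e-05). For phat-6 the values were 3.77, 3.58 and 3.80 at 4 months, against 5.48, 5.54 and 5.33 at 0 days (-1.74 ± 0.20, adjusted p = 4.54e-05), and for phat-8 they were 8.33, 6.79 and 7.44 at 4 months, against 9.84, 10.44 and 9.76 at 0 days (-2.49 ± 0.36, adjusted p = 0.000312). The groups did not overlap in any of them, and their calls held under every alternative setting. The others were phat-2 (-1.38) and abu-11 (-1.1), and 3 members were called without 4-month array 3. Of 23 muscle genes 5 were lower and 1 higher. The members that fell were myo-1 and myo-2, myosin genes known from pharyngeal muscle, the troponin genes tni-4 and tnt-4, and the myosin light chain gene mlc-2, while 13 of the 23 differences were above 0. The troponin I gene tni-4 had 8.28, 7.94 and 8.06 at 4 months, against 9.56, 9.61 and 9.52 at 0 days (-1.47 ± 0.19, adjusted p = 0.000125), myo-1 had 8.06, 8.55 and 8.29 at 4 months, against 9.29, 9.35 and 9.67 at 0 days (-1.14 ± 0.16, adjusted p = 0.000213) and myo-2 had 7.08, 8.23 and 8.0 at 4 months, against 9.15, 8.90 and 9.18 at 0 days (-1.31 ± 0.22, adjusted p = 0.00133). The troponin T gene tnt-2 was higher, with 10.59, 10.73 and 10.67 at 4 months, against 9.95, 9.84 and 10.11 at 0 days (0.70 ± 0.16, adjusted p = 0.0094). The muscle list as a whole averaged 8.71, 8.88 and 8.80 at 4 months, against 8.88, 8.87 and 9.02 at 0 days, and 3 members were lower without 4-month array 3 or 0-day array 3. After rescaling 11 were higher and 3 lower.

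Reproductive genes showed few calls and some opposed directions. Of 56 sperm genes 7 were lower and 2 higher, and the largest fall was that of the sperm-enriched peptide nspd-1, with 5.94, 7.74 and 5.74 at 4 months, against 9.10, 9.47 and 9.47 at 0 days, 7.32-fold lower (-2.87 ± 0.39, adjusted p = 0.000189). The sperm gene ssp-28 had 5.99, 5.80 and 5.08 at 4 months, against 7.12, 7.52 and 7.06 at 0 days (-1.61 ± 0.23, adjusted p = 0.000296), and nspd-7 had 5.36, 5.81 and 5.52 at 4 months, against 7.20, 7.22 and 6.74 at 0 days (-1.49 ± 0.25, adjusted p = 0.00114). These 3 had no overlap, and array 2 at 4 months lay nearest to the 0-day arrays for nspd-1. The count of lower sperm genes was 4 without 4-month array 3, 3 without 0-day array 2 and 16 without 4-month array 2, and neither rise was called without 4-month array 3 or 0-day array 1. Of 31 eggshell and oocyte genes only cpg-8, a chondroitin proteoglycan, was called, with 6.66, 6.41 and 6.15 at 4 months, against 7.59, 7.60 and 7.42 at 0 days (-1.13 ± 0.19, adjusted p = 0.00126), in every leave-out. Of 32 germline and meiosis genes none was called by limma (11 had an unadjusted p under 0.05), with mean signals of 8.11, 8.19 and 7.99 at 4 months, against 7.78, 7.85 and 7.90 at 0 days and a median of 0.30. After rescaling 18 of them were higher. Of 31 cell division genes 3 were higher, namely the phosphatase cdc-25.1, the centriole gene sas-6 and the checkpoint kinase bub-1, with 0.71, 0.73 and 0.58. The values of cdc-25.1 were 10.97, 11.11 and 11.26 at 4 months, against 10.38, 10.24 and 10.58 at 0 days (0.71 ± 0.16, adjusted p = 0.0094). None of the 3 was called without 4-month array 3, 1 was called without 0-day array 1 or 0-day array 2 and 5 without 4-month array 2, and 18 were higher after rescaling. Of 22 small RNA pathway genes mut-16 (0.64 ± 0.16, adjusted p = 0.0197) and drh-3 (0.56 ± 0.17, adjusted p = 0.0455) were higher, none without 4-month array 3, 0-day array 1 or 0-day array 2, and 1 without 4-month array 1 or 4-month array 2. Of 42 early embryo genes sdz-26 was higher (1.14 ± 0.33, adjusted p = 0.0354), a call that was lost when any 1 of the 6 arrays other than 4-month array 2 was left out, and 3 were called without 4-month array 2.

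Among detoxification enzymes the UDP-glucuronosyltransferases, which attach sugars to drugs and metabolites, had 7 of 67 members lower (10.4%) and 0 higher. The gene ugt-54 had 5.39, 5.36 and 5.27 at 4 months, against 6.46, 6.56 and 6.23 at 0 days (-1.08 ± 0.15, adjusted p = 0.000206), and ugt-2 had 7.25, 7.53 and 6.80 at 4 months, against 8.38, 8.40 and 8.47 at 0 days (-1.22 ± 0.18, adjusted p = 0.000474). Both calls held under every alternative setting, while the count was 4 without 4-month array 1 or 0-day array 3 and 3 without 4-month array 3 or 0-day array 2. Of 48 glutathione S-transferases 5 were lower and 3 higher. The largest fall was gst-33, with 5.51, 5.65 and 4.64 at 4 months, against 7.27, 7.65 and 7.05 at 0 days (-2.05 ± 0.26, adjusted p = 9.79e-05), and gst-21 rose at a dim level, with 3.23, 3.09 and 2.93 at 4 months, against 2.3, 2.23 and 2.50 at 0 days (0.74 ± 0.13, adjusted p = 0.00224). Without 4-month array 3, 0-day array 1 and 0-day array 2 there were 3, 2 and 1 falls, and 1 rise without 0-day array 2. Of 74 cytochrome P450 genes 4 were lower and 3 higher. The gene cyp-37B1 had 3.35, 3.36 and 2.82 at 4 months, against 5.06, 5.34 and 4.89 at 0 days (-1.92 ± 0.17, adjusted p = 6.37e-06), and cyp-34A2 had 5.13, 5.87 and 5.56 at 4 months, against 4.10, 4.12 and 4.27 at 0 days (1.36 ± 0.26, adjusted p = 0.00373). These 2 calls held under every alternative setting. Without any of 4-month arrays 1 and 3 and 0-day arrays 1 and 2, 1 fall was left, and 6 rises were called without 4-month array 2 and 1 without 0-day array 1. Of 54 ABC transporters pgp-14 (-0.80 ± 0.20, adjusted p = 0.0171) and abt-2 (-0.86 ± 0.23, adjusted p = 0.0246) were lower, a count of 0 without 4-month array 3, 0-day array 2 or 0-day array 3, of 1 without 4-month array 1 and of 9 without 4-month array 2.

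Nuclear hormone receptors, a family expanded in nematodes, had 37 of 271 members lower (13.7%) and 7 higher (2.58%). The gene nhr-177 had 3.62, 3.48 and 3.60 at 4 months, against 4.30, 4.65 and 4.23 at 0 days (-0.83 ± 0.12, adjusted p = 0.000497), and nhr-96 had 5.62, 6.18 and 5.12 at 4 months, against 6.79, 7.11 and 6.83 at 0 days (-1.27 ± 0.21, adjusted p = 0.00104). The count of lower receptors was among the least stable, at 14 without 4-month array 3, 17 without 0-day array 1, 18 without 0-day array 2, 19 without 4-month array 1, 62 without 4-month array 2 and 2 without both narrow arrays. Higher receptors numbered between 1 and 12, with the most without 4-month array 2. Secreted scl, ttr and lec genes had 22 of 94 members lower (23.4%) and 3 higher. The transthyretin-related gene ttr-29 had 6.50, 6.95 and 6.50 at 4 months, against 8.83, 8.86 and 8.44 at 0 days (-2.06 ± 0.22, adjusted p = 2.73e-05), ttr-27 had 5.34, 5.42 and 5.72 at 4 months, against 7.45, 7.52 and 7.07 at 0 days (-1.86 ± 0.21, adjusted p = 3.32e-05) and the cysteine-rich secretory gene scl-2 had 9.28, 8.75 and 8.50 at 4 months, against 10.28, 10.26 and 10.35 at 0 days (-1.45 ± 0.16, adjusted p = 2.82e-05). All 3 were lower in every 4-month array. The count was 13 without 4-month array 3, 14 without 0-day array 2 and 10 without both narrow arrays. Higher members numbered 1 without 4-month array 1 or 0-day array 1 and 7 without 4-month array 2. Of 10 sodium and calcium exchangers (ncx) 4 were lower, ncx-8, ncx-6, ncx-4 and ncx-2, with -1.52, -1.29, -1.05 and -0.97, and 0 without both narrow arrays.

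The 1299 chemoreceptor genes, most of them expressed in few sensory neurons, lay at the bottom of the signal range, with means of 2.78, 2.62 and 2.82 at 4 months, against 2.59, 2.64 and 2.55 at 0 days. Of these 29 were higher (2.23%) and 6 lower (0.462%), below the background in both directions. Members with clear changes were sri-31, with 4.17, 4.46 and 3.80 at 4 months, against 5.53, 5.71 and 6.56 at 0 days (-1.79 ± 0.23, adjusted p = 0.000145), srh-212, with 3.22, 3.72 and 3.76 at 4 months, against 4.88, 5.35 and 4.67 at 0 days (-1.40 ± 0.17, adjusted p = 8.35e-05), and srbc-6, with 3.50, 3.52 and 3.49 at 4 months, against 2.63, 2.64 and 2.57 at 0 days (0.89 ± 0.14, adjusted p = 0.000749). The count of higher receptors ran from 9 without 4-month array 3 to 135 without 4-month array 2, with 12 without 0-day array 1 or 0-day array 3, 16 without 0-day array 2 and 18 without 4-month array 1. That of lower receptors was 3 without 4-month array 3 and 16 without 4-month array 2.

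**Figure D4:**
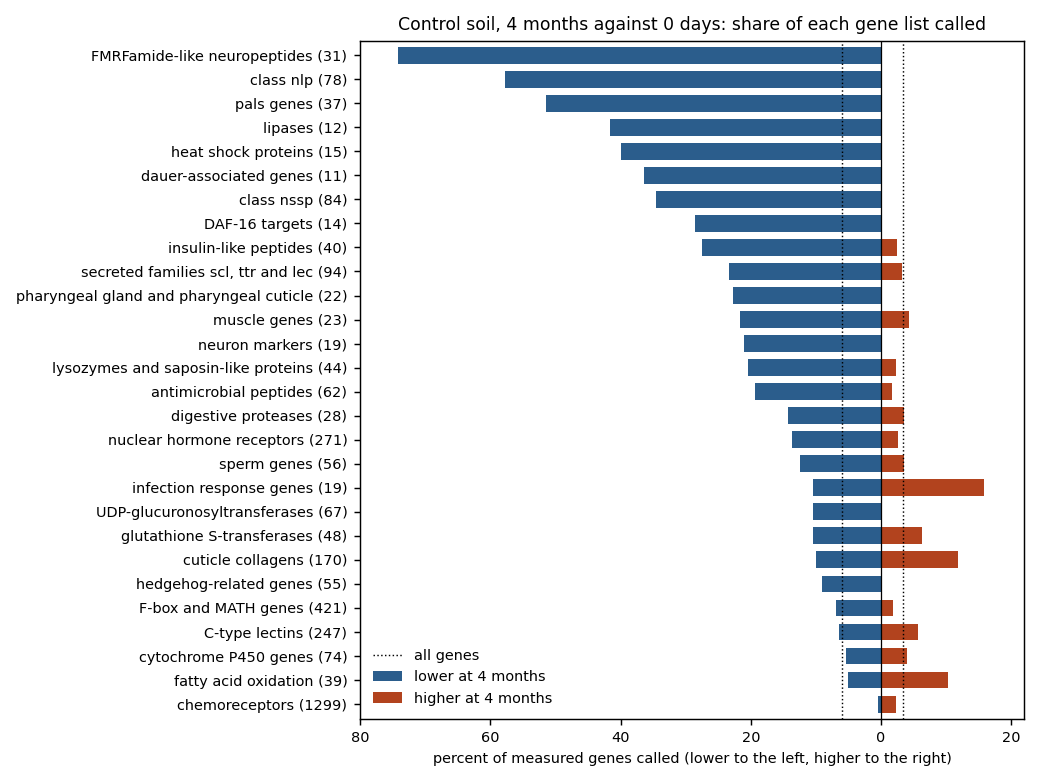
Percent of the measured genes of each list (number in brackets) called lower (bars to the left) or higher (bars to the right) at 4 months than at 0 days in control soil. The 28 rows are the lists with at least 10 measured and 4 called genes, and the classes nlp and nssp. Other classes are not drawn, also where they reach these numbers. Dotted lines mark the shares over all genes, 6.05% lower and 3.36% higher. The flp, nlp and pals families had the largest shares, 74.2%, 57.7% and 51.4% lower, and shares refer to the deposited scaling.

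Core cell functions held few calls. Of 62 cytosolic ribosomal protein genes rpl-38 was lower (-1.02 ± 0.26, adjusted p = 0.0197) and rpl-11.1 higher (0.59 ± 0.17, adjusted p = 0.0392). Of 33 proteasome subunits rpt-6 was lower (-0.78 ± 0.17, adjusted p = 0.00771), of 18 vacuolar ATPase genes vha-17 (-0.74 ± 0.14, adjusted p = 0.00343), and of 25 autophagy genes atg-13, bec-1 and atg-16.2, by -0.68, -0.50 and -0.53. Higher members were cyc-1 and ucr-2.3 among 27 nuclear respiratory chain genes (0.41 and 0.59), suca-1 among 15 citrate cycle genes (0.53), gpd-4 among 19 glycolysis genes (0.85) and pro-3 among 15 ribosome biogenesis genes (0.65). Of 13 glyoxylate, gluconeogenesis and sugar store genes icl-1 and tre-3 were lower (-0.67 and -0.80), and of 36 astacin metalloproteases nas-15 and nas-8 (-1.49 and -0.76). No call was made by limma in the lists of 12 mitochondrially encoded genes (0 at an unadjusted p under 0.05), 14 endoplasmic reticulum chaperones (3), 12 SKN-1 and glutathione genes (3), 16 DNA damage genes (3) and 9 histones (2). Without 4-month array 2, 2 chaperones and 2 histones were called, without 4-month array 1, 2 DNA damage genes and 1 histone, and after rescaling 7 chaperones, 4 DNA damage genes, 2 histones, 1 mitochondrially encoded gene and 1 SKN-1 and glutathione gene were higher. For example, gcs-1, the rate-limiting enzyme of glutathione synthesis, had 10.08, 10.47 and 10.47 at 4 months, against 10.87, 10.66 and 10.66 at 0 days. Apart from those of rpt-6 and vha-17, each call of this paragraph was lost when at least 1 single array was left out. Those 2 were lost after rescaling, at -0.32 and -0.17 (adjusted p = 0.235 and 0.578), and that of rpt-6 also without both narrow arrays (0.186). Rescaling likewise took rpl-38, atg-13, bec-1 and atg-16.2 to -0.41, -0.28, -0.012 and -0.28, none of them called. Leaving out 4-month array 3, 0-day array 1 or 0-day array 2 each took the count to 0 in 11 of the 54 lists with any call, 4-month array 1 in 4 and 0-day array 3 in 3, while leaving out 4-month array 2 raised the count over 1.5-fold in 24.

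The arrays of control soil at 14 days place these changes in the series of sampling times. The comparisons of 14 days and of 4 months with 0 days share the 0-day arrays, so each comparison's own values and calls are given for the same genes, and no overlap or correlation between them. Between 14 and 0 days 3372 probe sets were called (11.9%), 5.8% of all higher and 6.08% lower, and of genes 6.01% were higher and 5.08% lower. For col-36 the values were 9.19, 9.29 and 9.30 at 0 days, 8.60, 8.28 and 8.56 at 14 days and 3.80, 4.01 and 4.62 at 4 months. For grl-20 they were 9.50, 9.74 and 9.84 at 0 days, 9.51, 9.27 and 9.63 at 14 days and 4.64, 4.48 and 4.76 at 4 months, and for col-2 they were 6.03, 7.06 and 6.86 at 0 days, 6.76, 6.95 and 7.05 at 14 days and 2.31, 3.03 and 2.43 at 4 months. The 14-day arrays of col-36 were all below its 0-day arrays, but far above its 4-month arrays. Its 14-day difference from 0 days was not called by limma (adjusted p = 0.374). In grl-20 and col-2 the 14-day arrays lay near the 0-day arrays, and the 14-day differences were not called (adjusted p = 0.848 and 0.846). The same held for flp-9, with 10.48, 10.39 and 10.13 at 0 days, 10.20, 10.22 and 10.29 at 14 days and 9.20, 9.49 and 9.26 at 4 months, and for the lysozyme lys-8, with 10.47, 10.46 and 10.64 at 0 days, 10.79, 10.85 and 10.62 at 14 days and 9.15, 9.47 and 9.05 at 4 months.

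A second set of genes had already moved at 14 days. For irg-5 the values were 7.10, 6.90 and 7.29 at 0 days, 9.22, 9.49 and 9.55 at 14 days and 8.47, 9.67 and 9.44 at 4 months, with a 14-day difference of 2.32, adjusted p = 0.000213. For C45G9.4 they were 7.46, 6.79 and 6.33 at 0 days, 3.39, 3.09 and 3.13 at 14 days and 2.79, 3.76 and 2.66 at 4 months (14-day difference -3.66, adjusted p = 2.13e-05). For nlp-33 they were 10.17, 10.29 and 9.86 at 0 days, 8.64, 8.72 and 8.80 at 14 days and 9.0, 8.82 and 8.72 at 4 months (-1.39, adjusted p = 0.000676), and for hsp-16.41 they were 4.50, 3.37 and 3.60 at 0 days, 2.64, 2.56 and 2.62 at 14 days and 2.3, 2.56 and 2.49 at 4 months (-1.22, adjusted p = 0.00358). In these 4 genes the 14-day and 4-month arrays lay in the same range. The metallothionein mtl-1 lay between, with 12.22, 11.85 and 11.81 at 0 days, 10.99, 11.07 and 11.20 at 14 days and 10.71, 10.61 and 10.08 at 4 months. The genes given with 14-day values were picked after their values were seen.

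Nanoscale zero-valent iron is used to bind metals in soil, and the nZVI arrays at the same sampling times give a second measurement of the change over time with other arrays. In nZVI soil 6298 probe sets were called between 4 months and 0 days (22.2%), 3402 higher (12.0%) and 2896 lower (10.2%). Of the 2755 probe sets called in control soil 1313 were also called in the same direction in nZVI soil, which is 47.7% of the control calls and 20.8% of the nZVI calls, and 58 were called in the opposite direction. This held for 961 (53.5%) of the control falls and 352 (36.7%) of the control rises. Over all probe sets the differences in the 2 soils correlated at r = 0.451 (Spearman's rho = 0.32), given as a description, since probe sets are not independent.

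Among the largest changes, the collagens and ground-like genes fell in both soils. In nZVI soil col-36, grl-20 and col-185 changed by -5.14, -5.84 and -6.19, against -5.12, -5.06 and -5.06 in control soil. The difference between the soils was not called for any of the 3, with estimates of 0.02 ± 0.73, adjusted p = 0.99 (col-36), 0.78 ± 0.74, adjusted p = 0.573 (grl-20) and 1.14 ± 0.80, adjusted p = 0.429 (col-185). The rises of acdh-1 and F02H6.4 were also near in size, at 2.00 and 1.48 in nZVI soil against 1.68 and 1.62 in control soil, with differences of -0.32 ± 0.30, adjusted p = 0.554 and 0.14 ± 0.32, adjusted p = 0.829. These intervals are wide, and a missed threshold does not show that the soils acted alike.

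**Figure D5:**
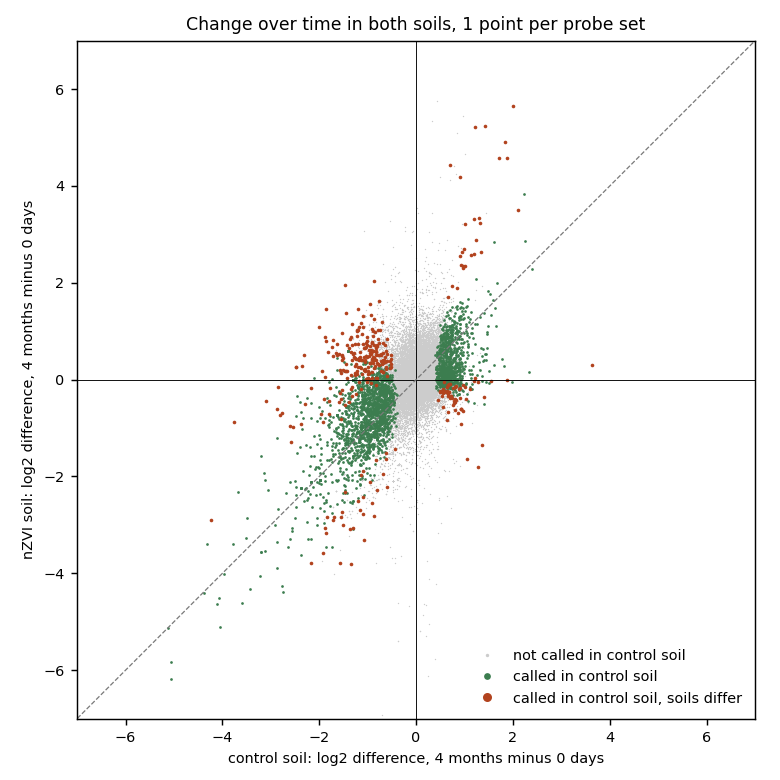
Log2 difference, 4 months minus 0 days, in nZVI soil (vertical axis) against control soil (horizontal axis), with 1 point per probe set and the dashed line marking equal changes. Of the 2755 probe sets called in control soil, 342 (large points) also differed between the soils at an adjusted p under 0.05.

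The test of the difference itself, the change in control soil minus that in nZVI soil, called 1225 probe sets (4.32%), 384 with a more positive (1.35%) and 841 with a more negative (2.96%) change in control soil. Of the 2755 probe sets called in control soil 342 (12.4%) were among them, 90 rises and 252 falls. The count was 660 without 4-month array 3, 686 without 0-day array 3, 736 without 0-day array 1, 805 without 0-day array 2 and 3464 without 4-month array 2. It was 424 without both narrow arrays. A difference in change can come from either end of the interval.

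Several collagens had a smaller upward difference in control soil, and of those named here col-162, col-138 and col-161 were called higher there while rol-1, bli-2 and col-38 were not. The collagen col-162 had 8.28, 7.55 and 7.56 at 4 months, against 5.71, 5.90 and 6.29 at 0 days in control soil and 8.85, 9.27 and 8.94 at 4 months, against 3.78, 4.19 and 4.37 at 0 days in nZVI soil, a difference in change of -3.08 ± 0.40, adjusted p = 0.000329. The collagen col-138 had 6.73, 5.94 and 6.52 at 4 months, against 4.65, 5.44 and 5.43 at 0 days in control soil (1.22 ± 0.25, adjusted p = 0.00637) and 8.59, 8.77 and 8.94 at 4 months, against 3.45, 3.77 and 3.41 at 0 days in nZVI soil, a difference of -4.0 ± 0.36, adjusted p = 1.25e-05. For rol-1, a collagen gene known from roller mutants, the values were 7.22, 7.20 and 7.59 at 4 months, against 6.66, 6.87 and 7.17 at 0 days in control soil and 9.81, 9.80 and 10.29 at 4 months, against 4.38, 4.22 and 4.04 at 0 days in nZVI soil, a difference of -5.32 ± 0.38, adjusted p = 1.33e-06. In all 3 genes the nZVI arrays at 0 days were the lowest and those at 4 months the highest of the 12 arrays. The same order held for the blister collagen bli-2, with a difference of -4.24 ± 0.65, adjusted p = 0.00126, for col-38 (-4.48 ± 0.55, adjusted p = 0.000194), for col-161 (-2.86 ± 0.41, adjusted p = 0.000747) and for the uncharacterised E01G4.6 (-5.0 ± 0.39, adjusted p = 2.72e-06). The uncharacterised Y51H7C.13 and Y51H7C.1 also rose less in control soil (-3.65 ± 0.45, adjusted p = 0.000194 and -2.70 ± 0.41, adjusted p = 0.00105), as did irg-5 (-1.42 ± 0.36, adjusted p = 0.0329). For C25F9.2 the values were 5.29, 7.93 and 6.57 at 4 months, against 7.63, 7.57 and 7.81 at 0 days in control soil and 6.22, 6.62 and 6.70 at 4 months, against 3.62, 3.05 and 3.69 at 0 days in nZVI soil (-4.14 ± 0.63, adjusted p = 0.0012). Of the 8 adult and pre-adult collagens 5 had a more negative change in control soil, and all 8 were called higher in nZVI soil, with a median of 4.19 against 0.84 in control soil.

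The 6 genes with the largest differences of the opposite sign were high in nZVI soil at 0 days. The secreted gene scl-11 had 3.45, 2.64 and 3.07 at 4 months, against 3.15, 2.77 and 2.52 at 0 days in control soil and 2.51, 3.13 and 3.09 at 4 months, against 8.60, 9.30 and 9.19 at 0 days in nZVI soil, a difference in change of 6.37 ± 1.41, adjusted p = 0.0171. The same pattern was seen in Y59A8B.26 (6.23 ± 0.94, adjusted p = 0.00105), col-108 (6.16 ± 0.89, adjusted p = 0.000785), spp-11 (5.48 ± 1.05, adjusted p = 0.00773), scl-12 (5.33 ± 0.84, adjusted p = 0.00162) and fipr-25 (5.00 ± 0.59, adjusted p = 0.000156). In these genes control soil was dim at both times and none of the 6 was called there. The ferritin ftn-1, which is induced by iron, had 4.66, 4.00 and 3.60 at 4 months, against 4.50, 4.93 and 4.30 at 0 days in control soil and 4.15, 3.66 and 4.06 at 4 months, against 7.60, 7.67 and 7.68 at 0 days in nZVI soil, a difference of 3.21 ± 0.34, adjusted p = 5.92e-05. For cdr-1 the values were 7.56, 7.63 and 7.01 at 4 months, against 7.90, 7.86 and 7.65 at 0 days in control soil and 8.52, 8.35 and 7.98 at 4 months, against 7.34, 7.26 and 7.01 at 0 days in nZVI soil (-1.48 ± 0.24, adjusted p = 0.00228). T05A8.2 and ZK218.5 fell further in control soil (-2.88 ± 0.31, adjusted p = 6.88e-05 and -1.34 ± 0.27, adjusted p = 0.00945), and F46F2.3 rose only there, with a change of -0.0072 in nZVI soil and a difference of 1.88 ± 0.35, adjusted p = 0.00635.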

How the data were processed

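The authors measured whole-worm RNA on 18 C. elegans Gene 1.0 ST arrays. They deposited log2 signals per probe set, and RMA and Transcriptome Analysis Console are named per the submitters' processing notes, with versions not given in the sources used here. Arrays were grouped by title. From the deposited log2 values, limma 3.58.1 (R 4.3.3; lmFit and eBayes) was fitted over all 18 arrays with 1 coefficient per group, so that the spread is shared, and Benjamini-Hochberg adjustment covered 28387 probe sets. The platform annotation gave 25546 probe sets 1 gene symbol, 646 several and 2195 none. Of those with 1 symbol, 25495 were matched by Entrez identifier to current names. Lists count 1 probe set per gene, the brightest over the 18 arrays. Array intensities limit precision through the number of arrays.

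Named genes are the 15 largest rises and 15 largest falls among called, non-overlapping genes, the 6 largest soil differences in each direction and 8 genes named always (col-19, vit-2, sod-3, cdr-1 and the metallothionein and ferritin genes). With them are up to 4 members of each list and leading class with the smallest p, called or not. Some further called members are also given. Members and lists were chosen with earlier results of these data known. Spellings of some list members and the matching rules of the chemoreceptor and ABC transporter lists were corrected after the files were read, and class members and genes at the ends of ranges were picked after their values were seen. Alternatives were other sets of arrays, array weights, scalings, filters, leave-outs and a replicate block. On simulated data for this comparison over 28387 probe sets, 50 were changed at each log2 change of 0.5, 1, 2 and 3. Of these 6%, 58%, 100% and 100% were recovered, and 12 of 28187 unchanged ones were called. The simulated noise was independent, with 1 spread per probe set for all groups and no shift of whole arrays. These shares therefore do not cover the wider spread of the 4-month group or its 2 narrow arrays. The main fit did not pair arrays by replicate number. No 2 arrays were copies of each other, as at most 0.109% of values were identical in any pair.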

Additional observations from a re-analysis of the deposited data

Results flagged for a closer look

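The change over time differed between control and nZVI soil for 1225 probe sets by the limma test of the difference, control minus nZVI, and for these named genes. The change was more negative in control soil for rol-1 (-5.32), E01G4.6 (-5.0), col-38 (-4.48), bli-2 (-4.24), C25F9.2 (-4.14), col-138 (-4.0), Y51H7C.13 (-3.65), col-162 (-3.08), T05A8.2 (-2.88), col-161 (-2.86), Y51H7C.1 (-2.70), cdr-1 (-1.48), irg-5 (-1.42) and ZK218.5 (-1.34). It was more positive for scl-11 (6.37), Y59A8B.26 (6.23), col-108 (6.16), spp-11 (5.48), scl-12 (5.33), fipr-25 (5.00), ftn-1 (3.21) and F46F2.3 (1.88).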

How the results depend on the processing

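Against 2755 called probe sets (959 higher, 1796 lower), 745 (106 and 639) were called with only the 6 arrays compared, 1818 (517 higher) with the 9 control soil arrays, 4863 (3541 higher) after rescaling, 574 higher among probe sets with a mean of at least 4, and 766 (181 and 585) without both narrow arrays. At an unadjusted p under 0.05 with a change of at least 2-fold, 1137 passed (135 and 1002). When single arrays were left out the count ran from 1303 to 5242, with 302 to 2364 higher and 1001 to 2878 lower. The soil difference called 1225 probe sets, 2490 with array weights, 424 without both narrow arrays, and 660 to 3464 when single arrays were left out. Rescaling reversed hsp-90 (0.038), pmt-1 (0.047) and ftn-2 (0.56), and of these only ftn-2 was called after rescaling. The cause was not tested. Deviations of same-numbered arrays from their group means correlated at 0.143, -0.234 and -0.0817, and those of other pairs at -0.324 to 0.364. With 3 arrays per mean, such values cannot show whether same-numbered arrays shared a culture or batch. With the replicate number as a block 2700 probe sets were called (867 higher, 1833 lower), 2488 of them shared in the same direction, and the soil difference called 1321. Of 202 named genes called, 85 kept their call under every alternative and 109 lost it in a leave-out.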

Other observations

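Some called genes lie next to each other in the annotation order of the measured genes, so genes without a measurement may lie between them. Only some of the runs found are given. How many such runs arise when 6.05% of all genes are lower was not tested, and similar pals genes may share signal. The 6 neighbours, vhl-1, F08G12.5, F08G12.11, nlp-57, hizr-1 and asm-2, were all lower, with differences from -1.34 to -0.75. Y26D4A.21, pals-2, pals-12, pals-3 and pals-4, also adjacent, were lower by -2.18 to -0.63, and so were the adjacent pals-36, pals-37, pals-39 and pals-38. Among classes of at least 10 genes, those with the largest share of higher members were acdh (25%), cdk (20%) and ints (20%), and calls in all 3 classes were lost in leave-outs. Those of acdh-12 and cdk-8 were lost without 0-day array 2, that of acdh-12 also without 4-month array 3, those of acdh-13 and cdk-12 without 0-day array 1, and both ints calls when 4-month array 2, 4-month array 3, 0-day array 1 or 0-day array 2 was left out. The probe set with the largest rise, which has no symbol, changed by 0.30 in nZVI soil (adjusted p = 0.776) and differed between the soils by 3.32 (limma, adjusted p = 0.0276).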
